A study of Mus musculus with 11 samples.

Results

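In the lateral ganglionic eminence (LGE) of the embryonic mouse forebrain, 1554 H3K27me3 peaks shared no base with any peak of the medial eminence (MGE), the caudal eminence (CGE) or the cortex (CTX). They were chosen by this peak overlap alone, on chromosomes 1 to 19 and X, and made up 9.22% of the 16851 LGE peaks and 871.743 kb, or 3.31%, of the bases under them. The 4 lists held 70216 peaks in all. The remaining 15297 LGE peaks shared at least 1 base with another list and are called shared LGE peaks here. By the same rule 2026 MGE peaks (13.2% of that list), 3181 CGE peaks (16.6%) and 4244 CTX peaks (22.6%) were found in their own list only, so the LGE share was the smallest in the lists as deposited. It was not the smallest with equal covered bases (LGE 12.6%, CGE 3.90%) or with a q under 0.001 in all lists (LGE 6.42%, MGE 6.41%).

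The mark was mapped by CUT&Tag, in which an antibody directs a transposase to chromatin so that tagged fragments can be sequenced, with an antibody to H3K27me3. All tissue came from wild-type C57BL/6J embryos, with no transgene or treatment in any group. The labels name microdissected brains of day 12.5 and day 14.5 embryos without giving an age per sample, and the study describes these eminence and cortex samples as day 12.5. There were 3 LGE, 2 MGE, 3 CGE and 3 CTX samples, of which the LGE, CGE and CTX groups each carry the same replicate number on 2 samples. The study states 2 biological replicates per region for CUT&Tag, so the samples are not all separate replicates. The protocol in the labels also speaks of pooling equal numbers of nuclei of the 4 regions, although each sample is labelled as 1 region, and this was not resolved. Replicates of a region were merged before peaks were called, so each region had 1 list, no value has a replicate error and no difference was tested. Absence from a list means that no peak was called there, not that the mark was absent. The lists hold no read counts. The study's methods state a sequencing depth for each library, which differed between regions and replicates, and its part in the counts was not tested.

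H3K27me3 is trimethylation of lysine 27 of histone H3, set by Polycomb repressive complex 2. It is known for broad domains over the CpG-rich starts of developmental regulator genes that a tissue keeps silent. The LGE is the ventral forebrain germinal zone that gives rise to the projection neurons of the striatum and to interneurons of the olfactory bulb.

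The sequences of LGE-only peaks fell into several kinds, and the central 200 bases of 6 peaks are shown, with each CpG in capitals, to let these be compared (GRCm38 reference sequence, as RefSeq distributes it). The first 2, labelled start, lie within 2 kb upstream of the gene's annotated 5′ end and do not hold that end. They are written in the direction of the gene, and the other 4 on the plus strand. The Ring1 stretch is chr17:34025026-34025225 (minus strand, 20 CpG) and the Ranbp1 stretch chr16:18249000-18249199 (minus strand, 16 CpG), both dense in CpG. The Ranbp1 stretch also lies inside the neighbouring gene Trmt2a, which runs on the plus strand. The next pair are the LGE-only peaks with the smallest q-values, at chr7:93086290-93086489 near Fam181b and at chr1:121622522-121622721 between genes upstream of Ddx18, and all of their bases are marked as repeat in the reference. The last pair are the widest peaks, at chr11:57585248-57585447 upstream of Galnt10 and at chr6:141493199-141493398 in an intron of Pde3a, and held 1 and 0 CpG.
Ring1 start: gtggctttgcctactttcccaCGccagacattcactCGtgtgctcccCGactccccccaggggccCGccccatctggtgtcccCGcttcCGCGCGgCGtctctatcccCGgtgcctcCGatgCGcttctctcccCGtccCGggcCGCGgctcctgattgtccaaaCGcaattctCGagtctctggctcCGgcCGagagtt
Ranbp1 start: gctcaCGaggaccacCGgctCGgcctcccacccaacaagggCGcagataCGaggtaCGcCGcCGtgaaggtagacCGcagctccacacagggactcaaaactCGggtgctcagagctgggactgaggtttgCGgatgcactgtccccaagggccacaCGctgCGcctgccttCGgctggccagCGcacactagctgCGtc
repeat near Fam181b: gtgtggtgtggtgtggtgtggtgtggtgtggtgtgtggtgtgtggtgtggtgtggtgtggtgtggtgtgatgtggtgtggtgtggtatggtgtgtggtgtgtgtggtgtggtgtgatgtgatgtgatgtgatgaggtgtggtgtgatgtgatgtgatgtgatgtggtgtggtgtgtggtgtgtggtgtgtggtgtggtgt
repeat upstream of Ddx18: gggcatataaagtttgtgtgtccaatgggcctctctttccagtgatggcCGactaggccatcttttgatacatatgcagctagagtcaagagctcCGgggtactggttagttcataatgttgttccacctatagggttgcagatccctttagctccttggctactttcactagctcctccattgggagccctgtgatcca
upstream of Galnt10: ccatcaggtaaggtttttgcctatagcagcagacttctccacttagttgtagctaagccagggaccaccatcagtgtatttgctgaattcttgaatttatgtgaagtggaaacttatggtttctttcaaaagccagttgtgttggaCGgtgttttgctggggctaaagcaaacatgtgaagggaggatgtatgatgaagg
Pde3a intron: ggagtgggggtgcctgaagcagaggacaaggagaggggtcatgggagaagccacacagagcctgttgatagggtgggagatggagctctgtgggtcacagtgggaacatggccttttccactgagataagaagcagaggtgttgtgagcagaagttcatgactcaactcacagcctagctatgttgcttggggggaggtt

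LGE-only peaks were narrow. Their widths ran from 279 to 3781 bases with a median of 407, against 1390 for shared LGE peaks, 505.5 for MGE-only, 573 for CGE-only and 636.5 for CTX-only peaks. Of the LGE-only peaks 1040 (66.9%) were under 500 bases, a width that 15.7% of shared LGE peaks had. In all 15 (0.965%) reached 2 kb, against 4942 shared LGE peaks (32.3%), 89 MGE-only, 115 CGE-only and 420 CTX-only peaks. This count depends on the lists: it was 60 with a q under 0.001 in all lists and 6 with that q in the LGE list alone, 34 with peaks under 3 kb apart joined, 33 with equal numbers of peaks, 78 with equal covered bases and 103 where under 50% cover by each other list was allowed. The narrowest width in a set depends on the list, and was 279 bases for LGE-only, 288 for MGE-only, 311 for CGE-only and 307 for CTX-only peaks.

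**Figure D1:**
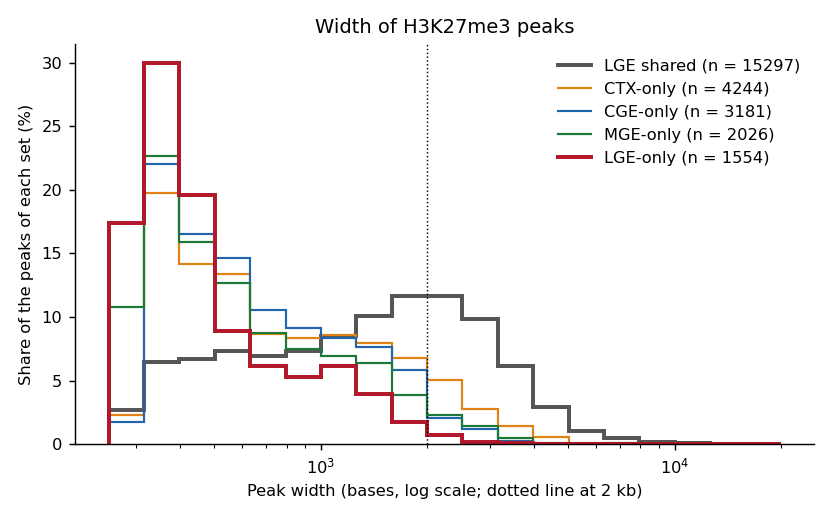
Width of peaks in bases (log scale) against the share of each set's peaks in percent, for LGE-only peaks (red), shared LGE peaks (grey) and the peaks found only in the MGE, CGE or CTX list. The LGE-only line is highest below 500 bases and almost none of it lies to the right of the dotted line at 2 kb.

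They were also weakly enriched beside shared LGE peaks. The fold enrichment over background that the authors' peak caller gave had a median of 2.77 in LGE-only and 3.02 in shared LGE peaks, and the median −log10 q was 1.77 and 4.88. Peaks found only in another list were not set beside the shared peaks of that list. In MGE-only, CGE-only and CTX-only peaks the median fold was 2.85, 2.51 and 2.56, and the median −log10 q 1.75, 1.88 and 1.95. These values are not independent of the rule, since a wider peak has more bases that another list can share. When all LGE peaks were ordered by q and divided into 5 equal groups, the weakest group held 911 of the LGE-only peaks (58.6%), the next 460, the middle one 162, the next 21 and the strongest 0. The largest −log10 q among them was 15.4, whereas it reached 277.704 in the shared peaks.

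Promoter shares were therefore also compared between peaks of like q. Within the weakest group, where 2460 shared peaks could be set beside the 911, a promoter was touched by 11.3% of LGE-only and 17.6% of shared peaks, and the median widths were 407 and 599 bases. In the next group 63 of 460 LGE-only and 582 of 2910 shared peaks touched a promoter, with median widths of 406 and 807 bases. In the middle group 8 of 162 (4.94%) and 791 of 3208 (24.7%) did, with median widths of 402.5 and 1141.5 bases. Peaks of like q were thus not of like width. Among the narrowest of 5 equal groups by width, at most 495 bases, 12.3% of 1028 LGE-only and 19.8% of 2343 shared peaks touched a promoter.

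By position, most LGE-only peaks lay away from gene starts. With a promoter taken as the 2 kb upstream of a protein-coding gene's annotated 5′ end, 175 of them (11.3%, 95% exact binomial interval 9.73 to 12.9, counting error only) touched a promoter, against 30.8% of shared LGE peaks, 9.08% of MGE-only, 6.79% of CGE-only and 10.1% of CTX-only peaks. The value depends on the definition: it was 17.4% with 2 kb on either side of the start, 19.1% with the starts of all transcripts, and 6.60% among the 212 LGE-only peaks with a q under 0.001. Placed by its centre, each peak had 1 location. Of the LGE-only centres 110 (7.08%) were in a promoter, 152 (9.78%) in an exon, 653 (42.0%) in an intron and 639 (41.1%) between genes. The shared LGE centres were divided 11.0%, 18.8%, 37.6% and 32.7%, and the bases of the genome 1.62%, 3.54%, 35.5% and 59.3%. Relative to the genome, LGE-only centres were therefore more frequent in promoters, exons and introns and less frequent between genes. The median distance of a centre to the nearest protein-coding 5′ end was 34.1 kb for LGE-only and 9.70 kb for shared LGE peaks, and 46.3, 32.0 and 57.9 kb for MGE-only, CGE-only and CTX-only peaks.

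**Figure D2:**
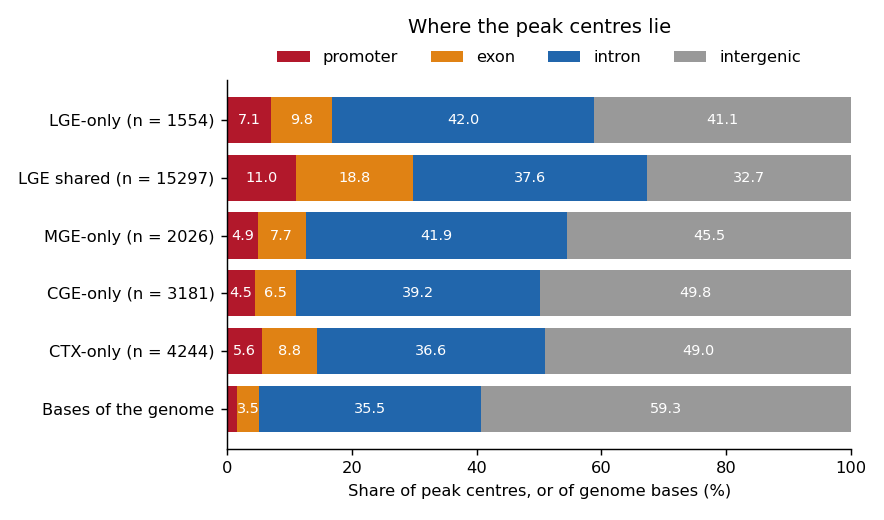
Share of peak centres (percent) in promoters, exons, introns and between genes for each set of peaks, with the share of genome bases in the same classes in the lowest bar. Promoters and exons hold 7.08% and 9.78% of LGE-only centres and 11.0% and 18.8% of shared LGE centres.

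Over the chromosomes the LGE-only peaks were spread widely. Their share of a chromosome's LGE peaks ran from 7.56% on chromosome 11 to 12.0% on chromosome 16, and their density from 0.181 per Mb on the X to 0.895 per Mb on chromosome 19. Gaps between neighbouring LGE-only peaks had a median of 622 kb. Only 26 gaps were under 3 kb and 57 under 10 kb, so runs of LGE-only peaks were uncommon.

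In base composition they were divided by position. The median G+C was 51.4% in LGE-only and 53.7% in shared LGE peaks (41.8% over the genome), and the median ratio of observed to expected CpG was 0.215 and 0.387 (0.191 over the genome). Taking a G+C of at least 50% with a CpG ratio of at least 0.6 as CpG-rich, 211 LGE-only peaks (13.6%) were CpG-rich, against 18.2% of shared LGE, 9.82% of MGE-only, 3.87% of CGE-only and 11.6% of CTX-only peaks. Within promoters the order was different, with 70 of 110 LGE-only centres CpG-rich (63.6%) against 41.4% of shared LGE, 58.6% of MGE-only, 21.8% of CGE-only and 61.9% of CTX-only ones. In exons the shares were 51.3%, 39.9%, 59.0%, 22.1% and 61.0% in the same order. LGE-only and shared LGE centres were CpG-rich in 7.20% and 13.8% of cases in introns and in 2.50% and 3.08% between genes. Of the 211 CpG-rich peaks 156 were centred within 1 kb of a protein-coding 5′ end as RefSeq places it, and 160 were under 500 bases wide.

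Another set consisted of repeats. At least 50% of the bases were marked as repeat (soft-masked in the reference) in 269 LGE-only peaks, or 17.3%, against 3.72% of shared LGE, 9.82% of MGE-only, 6.63% of CGE-only and 5.66% of CTX-only peaks. These 269 lay between genes in 151 cases and in introns in 114, and 4 touched a promoter. They were more frequent among the better scoring peaks, although 183 of the 269 had a q of 0.001 or more. Of the 212 LGE-only peaks with a q under 0.001, 86 were mostly repeat (40.6%, exact binomial interval 33.9 to 47.5), against 13.6% of the other 1342, and so were 16 of the 20 with the smallest q. In shared LGE peaks the shares were 3.04% below and 5.10% above the same q. They were 14.1% and 9.22% in MGE-only, 5.99% and 6.75% in CGE-only, and 5.70% and 5.64% in CTX-only peaks. Repeats can hold sequence that reads map to in several places, and how the mapping of such reads bears on these peaks was not tested. The remaining 1095 LGE-only peaks (70.5%) were neither CpG-rich nor mostly repeat, and had a median width of 431 bases.

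**Figure D3:**
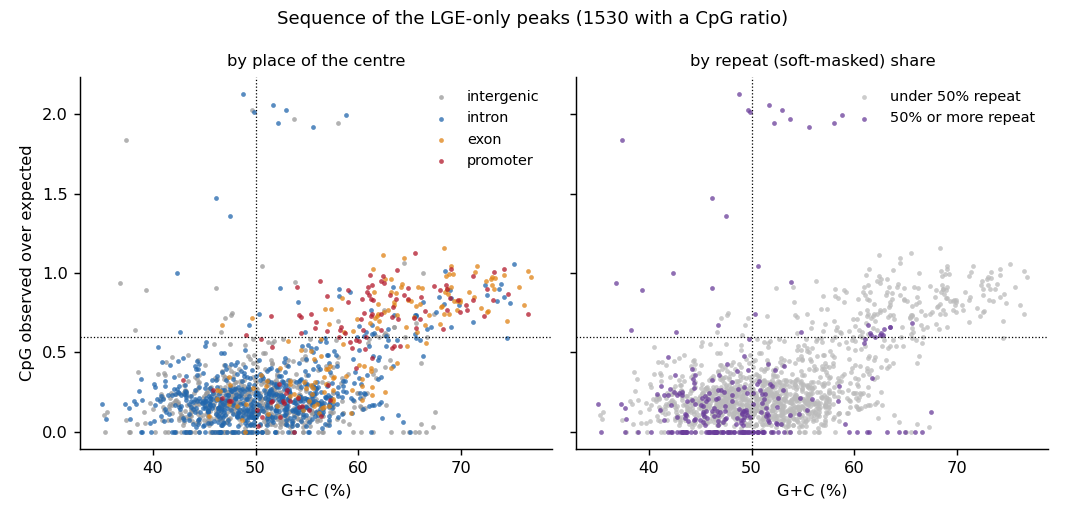
G+C in percent against the observed over expected CpG ratio for the 1530 LGE-only peaks with a ratio (24 have no C or no G), coloured by the place of the centre on the left and by whether at least 50% of the bases are marked as repeat on the right. Dotted lines stand at 50% and 0.6; promoter and exon centres make up most of the points in the upper right, where few mostly repeat peaks lie.

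The distance from an LGE-only peak to the nearest peak of the other lists ran from 1 base to 2263 kb, with a median of 10.8 kb. It was at most 1 kb for 123 peaks (7.92%), at most 5 kb for 543 (34.9%), at most 10 kb for 760 (48.9%), and over 100 kb for 165 (10.6%). Within 5 kb the shares were 24.5% of MGE-only, 31.1% of CGE-only and 25.4% of CTX-only peaks, and their medians were 18.6, 9.68 and 17.3 kb. The nearest list was CGE for 723 LGE-only peaks (46.5%), CTX for 524 (33.7%) and MGE for 307 (19.8%). Those lists held 36.0%, 35.2% and 28.8% of the peaks of the other lists, so CGE was nearest more often, and MGE less often, than their sizes. The median distance was 26.8 kb to the MGE, 17.5 kb to the CGE and 20.7 kb to the CTX list taken singly, and 22.8 kb to the nearest shared LGE peak. The 15 peaks of 2 kb or more had a median distance to the other lists of 22.6 kb, and 13 were over 10 kb away.

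**Figure D4:**
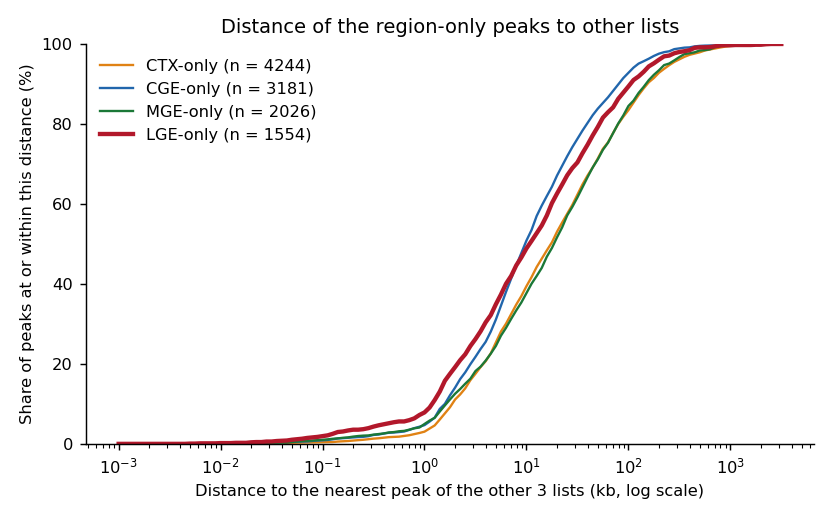
Share of peaks (percent) at or within a given distance (kb, log scale) of the nearest peak of the other 3 lists, for the peaks found only in the LGE (red), MGE, CGE or CTX list. The LGE-only line reaches 34.9% at 5 kb and 48.9% at 10 kb, and lies above the MGE-only and CTX-only lines at both distances.

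At the limit of the rule, the LGE-only peaks closest to another list lay 1, 5 and 6 bases from a CTX peak, on chromosomes 11, 3 and 1, and were 454, 367 and 346 bases wide. Just outside it, 3 LGE peaks shared 1, 1 and 2 bases with another list, and were 1342, 1121 and 284 bases wide. A total of 56 shared LGE peaks had under 10% of their bases covered by other lists. The most isolated LGE-only peak was chr16:81653549-81653870 (322 bases, −log10 q 2.63), which lay between genes 453 kb from the 5′ end of Ncam2, a neural adhesion molecule, and 2263 kb from the nearest MGE peak, and was all repeat. Of the 4 that followed, 2 were neighbours upstream of Celf4, an RNA-binding protein, 1 lay 2199 kb upstream of the protocadherin Pcdh17 and 1 lay 640 kb from the 5′ end of Actrt1 on the X.

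At the gene level 789 of 20773 protein-coding genes were touched in the body or the 2 kb upstream by an LGE-only peak, which is 3.8% of all genes, and 880 LGE-only peaks (56.6%) touched a gene. Of the touched genes 423 (53.6%) also held a shared LGE peak, as did 34.5% of all genes. A further 285 held no other peak of any list. Touched genes were long, with a median body of 56.6 kb against 17.0 kb for all genes. The share touched rose with length, from 1.32% of genes under 10 kb through 5.65% at 50 to 100 kb to 24.1% at 500 kb or more. Per Mb of gene it went the other way, from 2.15 LGE-only peaks in genes under 10 kb to 0.476 in genes of 500 kb or more, and for shared LGE peaks from 43.1 to 4.11.

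Several LGE-only peaks in 1 gene were found for 89 genes (0.428% of all genes), with 2 such peaks in most and 3 or more in 24. The median body of the 89 was 226 kb. In the 24 genes there were 84 LGE-only peaks, 78 with the centre in an intron and 6 in an exon. None was at a promoter and none was 2 kb wide. All 24 genes also held a shared LGE peak. With a q under 0.001 required of the LGE peaks, 5 genes held several.

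Nhsl1, a relative of the Nance-Horan syndrome gene, and Agap1, a GTPase-activating protein for Arf, had 5 each. In Nhsl1 (chr10:18318985-18533892, plus strand) the peaks were 365, 1574, 373, 1711 and 525 bases wide, and 4 of them lay within 21.2 to 57.4 kb of the 5′ end. The gene held 8 shared LGE peaks, 9 CGE, 6 MGE and 2 CTX peaks. In Agap1 (chr1:89454806-89897617, plus strand) the 5 were 285 to 1534 bases wide and lay 0.010 to 2.208 kb from a CGE peak, among 28 shared LGE and 36 CGE peaks. The Agap1 peaks were thus next to marked stretches, whereas those of Nhsl1 were 2.87 to 17.8 kb away.

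Of the genes with 4, Ptprg is a receptor tyrosine phosphatase, and its peaks were 441 to 1422 bases wide between 330 and 600.2 kb from its 5′ end. Nsf encodes the ATPase that takes SNARE complexes apart after membrane fusion. Its 4 intronic peaks, 811, 607, 659 and 1404 bases wide, lay together between 100.2 and 122 kb from the 5′ end, and the gene held no CTX peak, 1 CGE and 3 MGE peaks. Cacna2d3 encodes an accessory subunit of voltage-gated calcium channels. Its 4 peaks, 594, 342, 352 and 791 bases wide, followed each other within chr14:29114753-29122511, in an intron and 71.8 to 78.8 kb from the nearest peak of the other lists. Erbb4, the neuregulin receptor that many interneurons carry, had 3 of its 4 in a similar run, 305 to 460 bases wide and 212 to 218 kb from the nearest MGE peak, and the other 2.04 kb from a CGE peak. Enox1 had 3 of its 4 between 248 and 255 kb from its 5′ end, 0.766 to 4.19 kb from a CTX peak. In Myo16, an unconventional myosin, Sez6l and Rbfox3, the neuronal splicing factor known as NeuN, the 4 peaks were 287 to 717 bases wide, and the last 2 in Myo16 were neighbours, 472 and 474 kb from the 5′ end.

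Of the genes with 3, the summed width was largest in Wwox (3567 bases), an oxidoreductase. It was 2663 bases in Rnf220, a ubiquitin ligase, 2507 in Suclg2, a subunit of succinyl-CoA ligase, and 2155 in Gabbr2, a subunit of the GABA-B receptor. The Rnf220 peak of 1436 bases had a −log10 q of 8.34, and the Wwox peaks lay 0.303 to 1.73 kb from another list.

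**Figure D5:**
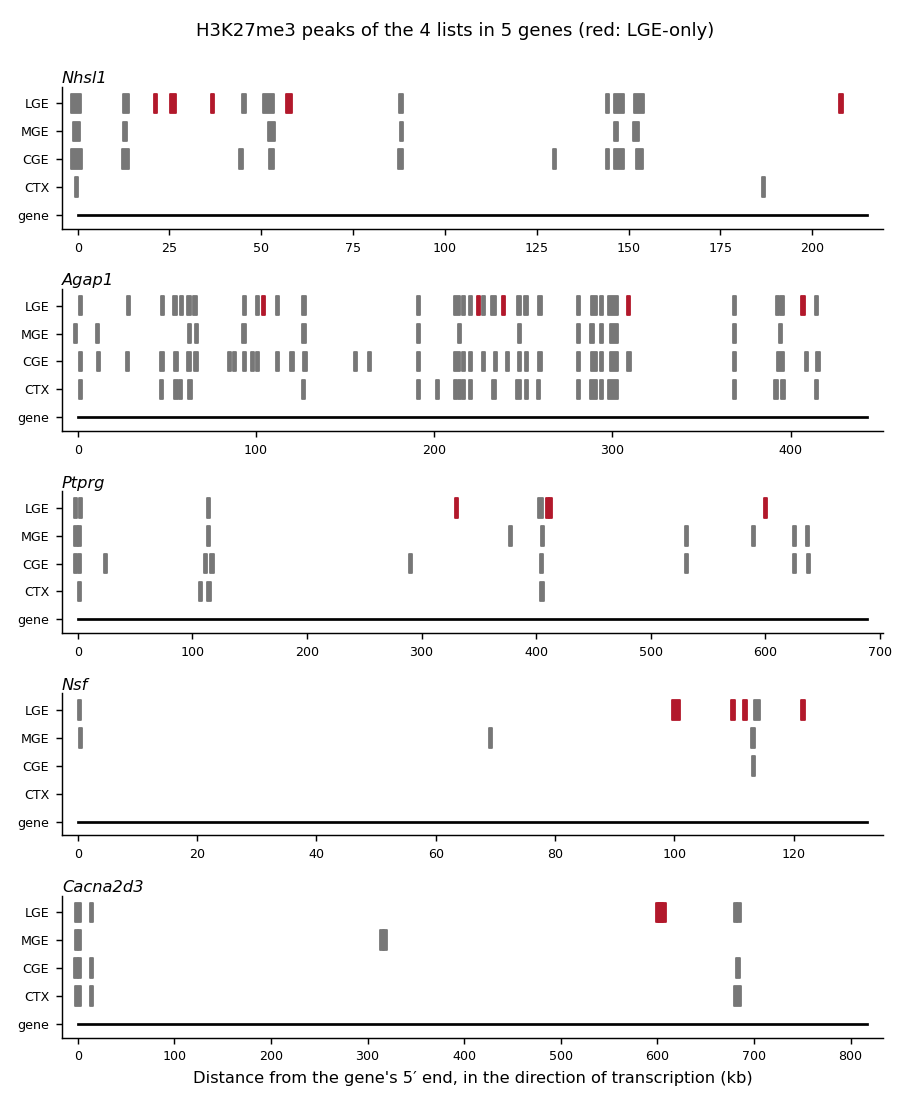
Peaks of the LGE, MGE, CGE and CTX lists (1 row each) along the 5 genes with the most LGE-only peaks, ordered by their number and then their summed width, with the distance from the 5′ end in kb. LGE-only peaks are red, all others grey, and narrow peaks are drawn at a minimum width so that they can be seen, which joins close neighbours such as the 4 LGE-only peaks of Cacna2d3.

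The 15 peaks of 2 kb or more were 2014 to 3781 bases wide, with 10 centred in an intron, 5 between genes and 0 in a promoter or exon. Their CpG ratios ran from 0.115 to 0.324, and 6 had a q under 0.001. The median ratio was 0.206, near the 0.215 of all LGE-only peaks and the 0.191 of the genome. The widest, chr11:57583458-57587238 (3781 bases, fold 2.28, −log10 q 3.30), lay 60.1 kb upstream of Galnt10, a glycosyltransferase, and 16.3 kb from a CGE peak. The Pde3a intron peak (chr6:141491949-141494648, 2700 bases, −log10 q 5.95), in a gene for a cyclic nucleotide phosphodiesterase, lay 240 kb from the nearest peak of any other list. The other genes with a wide intronic peak were Fam129b (2602 bases), Opcml (2562), a neural cell adhesion molecule, Nin (2505), a centrosomal protein, Sdccag8 (2401), also centrosomal, Grk3 (2281), a receptor kinase, Fam19a2 (2238), a secreted brain protein, and Rere (2067), a nuclear receptor coregulator. A pair of further peaks lay in introns of Fgfr2 (2327 bases) and 5730522E02Rik (2020) as GENCODE draws these genes, but outside them in RefSeq. Their nearest protein-coding 5′ ends were at Dmbt1 and Fancl, 6.375 and 297 kb away. The wide peaks between genes, other than that upstream of Galnt10, also lay far from the nearest protein-coding 5′ end. This was Dynlrb2 at 304 kb, Glul at 79.8 kb, Smim15 at 122 kb and Sall3 at 631 kb. The peak nearest to Sall3 lay 1.15 kb from a CGE peak.

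The LGE-only peaks with the smallest q were narrow repeats. The smallest was at chr7:93086214-93086566 (353 bases, fold 6.69, −log10 q 15.4), 6.51 kb from the 5′ end of Fam181b. It was followed by a peak 54.6 kb upstream of Ddx18 (315 bases, −log10 q 11.1), a peak in a long gene-free stretch 1230 kb from Nr2f1 (536 bases, 10.5), and an intronic peak in Tenm2, a teneurin (410 bases, 9.99). In all 4 at least 99.6% of the bases were marked as repeat.

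At promoters the LGE-only peaks covered little. Of 21755 promoters 193 held at least 1 LGE-only base, with a median of 14.65% of the promoter covered, and 14 of them also held a base of another list. At least 50% was covered at 5, or 0.023% of all promoters. The promoter of Ptma (prothymosin alpha) was covered over 62.6%, that of Myh6, the alpha heavy chain of cardiac myosin, over 60.4%, and that of Ring1, a ubiquitin ligase of Polycomb repressive complex 1, over 59.8%. Ranbp1, which binds the GTPase Ran, followed with 57.2%, and Bcar1, a focal adhesion scaffold, with 56.0%. The other 3 lists covered 0% of these promoters, with the exception of 1.4% of that of Bcar1 in CGE. A CTX peak lay 0.495 kb from the Myh6 peak, however, and a CGE peak 0.144 kb from the Bcar1 peak. Within 2 kb on either side of the Myh6 start, CTX peaks covered 19.2%. The Ptma, Ring1 and Ranbp1 peaks lay 5.69 kb or more from any other list. The 5 LGE-only peaks were 1121 to 1556 bases wide, with −log10 q values between 1.08 and 2.57, so none had a q under 0.001. The Ptma, Ring1 and Ranbp1 peaks had CpG ratios of 0.83, 0.65 and 0.84, and those of Myh6 and Bcar1 0.10 and 0.18.

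Developmental regulators, most of which held LGE peaks, were touched by LGE-only peaks at the rate of all genes. Of 194 genes of 13 families (among them Hox, Wnt, Lhx, Nkx, Dlx, Pax, Sox, Fox, Tbx, Gata, Irx and Zic) 177 (91.2%) held some LGE peak, against 36.2% of all genes, and 7 (3.61%) held an LGE-only peak, against 3.8% of all genes. The 7 were Foxn1, Foxn4, Foxo1, Pax2, Pax8, Tbx5 and Wnt5a, all transcription factors but for the secreted signal Wnt5a, and none of the Hox, Lhx, Nkx, Dlx, Sox, Gata, Irx or Zic genes was touched. The Wnt5a peak alone was at a promoter. It was 321 bases wide, with a fold of 1.53, and centred 0.72 kb upstream of the RefSeq 5′ end and 1.55 kb from a CTX peak. Of its bases 56.1% were marked as repeat. Within 2 kb on either side of the GENCODE start, MGE, CGE and CTX peaks covered 11.55%, 12.4% and 30.45%. The LGE-only peaks of the other genes were 304 to 790 bases wide, in introns or, in Foxn4, an exon. LGE-only peaks in these genes mostly came in addition to others: Pax2 held 5, Pax8 6 and Tbx5 5 LGE peaks in all, and LGE peaks covered all of the Foxn4 promoter and 94.95% of the Foxo1 promoter, while the LGE-only peak was the only LGE peak of Foxn1.

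The peak lists do not measure expression and so cannot check the dissection by its marker genes. Of genes that mark the regions, listed from general knowledge, 1 of 23 for LGE and striatum held an LGE-only peak. This was Ebf1, a transcription factor of striatal neurons, with a peak of 292 bases in an intron, 212 kb from its 5′ end and 0.548 kb from a CGE peak, among 16 LGE peaks in the gene. The promoter was covered over at least 50% by LGE peaks of any kind for 8 of those 23 genes (34.8%), 5 of 10 MGE, 2 of 7 CGE, 3 of 9 pan-eminence and 9 of 19 cortex marker genes, and 6.68% of all genes. None of 10 MGE, 9 pan-eminence or 19 cortex marker genes held an LGE-only peak, and 3 of 7 CGE marker genes did, where 3.8% of all genes did: Nr2f1, Prox1 and Calb2. The Nr2f1 peak was 459 bases wide, in an exon, with a −log10 q of 4.49 and a fold of 1.53. That in an intron of Prox1, a homeobox factor, was 337 bases wide and 0.296 kb from a CGE peak. That in an intron of Calb2, which encodes calretinin, was 430 bases wide, 9.07 kb from the nearest shared LGE peak and 98.1% repeat. With 7 genes in the list this is a description only.

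In other gene families the share touched lay on either side of the 3.8% of all genes, near it in Slc and ribosomal protein genes. Gene length, with which the share touched rose, was not taken into account here. LGE-only peaks touched 16 of 371 Slc transporter genes (4.31%), 10 of 390 Zfp genes (2.56%), 3 of 92 ribosomal protein genes (3.26%), 1 of 45 collagen genes (2.22%), and 0 of 68 protocadherin and 0 of 1099 olfactory receptor genes. They touched 8 of 94 potassium channel genes (8.51%), among them Kcnq1 with 2 peaks, and 7 of 49 axon guidance genes (14.3%), namely Efna2, Epha2, Epha5, Epha10, Ephb1, Ephb2 and Robo1. Axon guidance genes also held any LGE peak in 85.7%, and olfactory receptor genes in 0.273%. The ephrin and Eph peaks were 342 to 905 bases wide, and the Efna2 peak lay 0.18 kb, and the Ephb2 peak 1.14 kb, from a CTX peak. The ribosomal protein genes Rpl18, Rpl30 and Rps27l were touched near their starts by peaks of 375 to 817 bases, of which that of Rps27l was 71.1 kb from the nearest peak of the other lists.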

How the data were processed

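The authors mapped CUT&Tag reads with Bowtie2 to GRCm38 (mm10), discarded reads in blacklisted regions and took out duplicates with Picard. Peaks were called by the authors with the broad setting of MACS, once per region, on the pooled and again deduplicated alignments of its replicates (SAMtools was used for pooling). The MACS version and control are not given in the sources used here. The deposited lists give, for each region, the peak positions with a score, a p-value, a fold enrichment over the caller's background and a −log10 q, as the authors' MACS run wrote them, and the smallest −log10 q in any list was 1.00. Positions, fold enrichment and −log10 q were used here. The lists hold no read counts, the library depths in the study's methods were not used, and exact binomial intervals (95%) cover counting error only.

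LGE-only peaks were LGE peaks with 0 bases in the union of the other 3 lists, on chromosomes 1 to 19 and X. Coordinates are printed counted from 1. Promoters, exons and introns came from protein-coding genes of GENCODE M21. Median distances to a 5′ end, and distances within genes with several LGE-only peaks, used GENCODE starts. The count of CpG-rich peaks within 1 kb of a 5′ end, and the distances of other named peaks, used RefSeq starts. Genes were counted over the span (with 2 kb upstream) that GENCODE M21 and the RefSeq annotation of GRCm38 share, a choice made after spans of several Mb from readthrough transcripts were seen; 955 of 21755 genes had no RefSeq match. Base composition and repeat marking came from the RefSeq sequence. Scripts used Python 3.11.15, pandas 2.3.3, numpy 2.4.6 and scipy 1.17.1 and were tested on simulated peaks.

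With 1 merged list per region no test across replicates was made. Named genes were those with several LGE-only peaks (up to 15, by number and then summed width), those under peaks of 2 kb or more, those with a promoter covered over at least 50%, the 5 smallest q, the 5 most isolated, and touched marker and family genes. A few genes that this rule names are not reported here. Peaks, members and gene lists were chosen with earlier results of these data known. Alternatives changed the q threshold, the joining of peaks, the number or bases of peaks per list, the distance or overlap allowed, the chromosomes, and the promoter and gene definitions.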

Additional observations from a re-analysis of the deposited data

Results flagged for a closer look

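The LGE list also held 4 peaks on the mitochondrial genome, which were left out of every comparison. The CGE list held 3, the MGE list 2 and the CTX list 2. They were singled out because they are signal outside the chromosomes compared and their number is above 3, the limit that a count of 0 allows. That limit does not compare the LGE number with those of the other lists, and this difference was not tested.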

How the results depend on the processing

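No paired analysis was possible because the replicates of each region were merged before peaks were called, and for the same reason no replicate could be left out. Called at a q under 0.001 in all lists, 672 LGE-only peaks were found, with a median width of 529 bases, 60 of 2 kb or more, 20.2% within 5 kb of another list, 22 genes with several and a median G+C of 51.0%. With that q in the LGE list alone the values were 212 peaks, 6.60% at promoters, 6 of 2 kb or more, 30.7% within 5 kb, 5 genes and 49.3% G+C. Of the 5 promoters covered over at least 50%, 0 remained under either. Joining peaks under 3 kb apart gave 34 wide peaks and 26.9% within 5 kb. Equal numbers of the strongest peaks gave a median width of 431 bases, 33 wide peaks and 28.5% within 5 kb, and equal covered bases 488 bases, 78 and 25.4%. Requiring 10 kb to any other peak left 794 peaks, 14.6% at promoters, a median width of 394.5 bases and 31 genes. Allowing under 50% cover by each other list gave a median width of 458 bases and 103 wide peaks. Promoters of 2 kb on either side gave 17.4% and the starts of all transcripts 19.1%. Within 5 kb of the MGE, CGE and CTX lists taken singly lay 15.5%, 26.2% and 21.4%. The causes were not tested.

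Of the original 1554 peaks 785 were still LGE-only with equal covered bases and 1054 with equal numbers. The share of a list found in that list only was smallest in LGE as reported, with joined peaks, with equal numbers and on autosomes, but not with equal covered bases (LGE 12.6%, CGE 3.90%) or with the stricter q in all lists (LGE 6.42%, MGE 6.41%). LGE-only peaks touched promoters less often than shared LGE peaks under the 6 alternatives that changed the lists or chromosomes. RefSeq starts and spans and GENCODE spans alone, added after seeing the data, kept the values near those reported. The libraries differed in stated depth, and its part in these counts was not tested.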
